A study of Mus musculus with 2 samples.

Results

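The ATP-binding cassette (ABC) transporters were examined in whole-kidney messenger RNA of mice with acute kidney injury (AKI). The genes were all those whose symbol begins with *Abca*, *Abcb*, *Abcc*, *Abce*, *Abcf* or *Abcg* followed by a number, and the peroxisomal *Abcd* genes were left out. This rule found 36 of the 19829 listed genes. The mouse RefSeq table (GRCm38.p6) holds 46 genes of these subfamilies. The other 10, *Abca12*, *Abca14*, *Abca15*, *Abca16*, *Abcb5*, *Abcb11*, *Abcc8*, *Abcc12*, *Abcg5* and *Abcg8*, had no row and were not analysed here.

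ABC proteins bind and hydrolyse ATP. Most use that energy to carry lipids, conjugated metabolites, peptides, heme precursors or drugs across a membrane, whereas the ABCE and ABCF proteins have no membrane part and act on ribosomes. In the proximal tubule, organic anions are taken up from the blood by carriers that include members of the SLC22 family. The anions leave the cell into the urine through ABC pumps of the brush border. Among the pumps of this membrane are the products of *Abcc2*, *Abcc4*, *Abcg2* and the P-glycoprotein genes *Abcb1a* and *Abcb1b*. P-glycoprotein also carries calcineurin inhibitors of the cyclosporine type, the drug class to which voclosporin belongs.

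One library per group was sequenced. WT+AKI came from kidney of wild-type control mice and TG+AKI from kidney of transgenic mice that overexpress *Inmt*, the gene of indolethylamine N-methyltransferase, in proximal tubules. Whole-kidney RNA also holds the cells to which the transgene is not directed, and how many mice gave RNA to a library is not given in the sources used here. Per the study's methods, C57BL/6 mice were used and both genotypes received the calcineurin inhibitor voclosporin (2 weeks of 30 mg/kg daily, given between 8 and 10 weeks of age) and then bilateral renal ischemia of 30 min and reperfusion at 14 weeks of age. Kidneys were taken 48 h later according to the methods, and a legend gives 24 h. In the labels, the treatment field reads as untreated for both, and the title of the transgenic sample also names a conditional knockout. *Inmt* had a normalized value of 10.4 in WT+AKI (443 reads) against 402.8 in TG+AKI (13339 reads), a 38.5-fold difference in the direction of a transgene. No untreated or sham library was analysed here, so every difference below is between 2 libraries of injured kidney.

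The libraries held 38542764 reads (WT+AKI) and 36427421 reads (TG+AKI), of which the ABC genes took 0.282% and 0.261%. A normalized value is the number of reads per 1000000 of the scaled library, and a value of 1 stood for 42.4 (WT+AKI) and 33.1 (TG+AKI) reads. With 1 library per group there is no test of the conditions and no measure of the spread between mice. Brackets hold 95% Clopper-Pearson intervals of a ratio, computed from the reads of both libraries. Reads without molecular identifiers are not independent molecules, so these intervals cover counting error only. They do not cover the choice of scaling.

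The kidneys differed in the markers of several cell types. All 9 proximal tubule markers were at least 2-fold higher in TG+AKI, with a summed value of 2937 in WT+AKI against 14043 in TG+AKI, and all 7 markers of injured tubule were at least 2-fold lower (summed value 12952 and 803). Macrophage markers were at least 2-fold lower for 7 of 9 genes (194 and 85.5) and fibroblast markers for 4 of 6 (508 and 208). The 5 podocyte and 8 endothelium markers held none that differed 2-fold. Of the distal nephron, 2 of 3 thick ascending limb markers and 1 of 4 collecting duct markers were 2-fold higher. Both neutrophil markers compared were 2-fold lower, and the 2 erythroid markers compared did not differ 2-fold. Of 3 hepatocyte markers, *Alb* (34 reads in WT+AKI) and *Ttr* were 2-fold higher, and *Apoa1* was below a value of 1 in both libraries. The 4 listed T cell markers were also below a value of 1 in both libraries. No listed marker was at 0 reads in either library. In whole-kidney RNA, fewer cells of a type and less RNA per cell cannot be told apart.

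Genes of the family were counted at a 2-fold limit. Of the 36 genes, 32 reached a value of 1 in either library and were compared. Differences were taken between values of log2(value + 0.1), where changes of low genes appear too small. Of these 32, 2 were at least 2-fold higher in TG+AKI, beside 7.02% of the 14997 genes compared, and 2 were at least 2-fold lower, beside 10.5%. With 32 genes, counts this small do not set the family apart from all genes. The higher genes were *Abca13* and *Abcc6*, and the lower genes were *Abcc3* and *Abcb1b*. The median log2 fold change of the family was 0.19 against -0.02 over all genes compared, and it turned to -0.08 when the library totals were made equal. That scaling moved the median of all genes by -0.27, so the distance between family and all genes stayed at 0.21. The reads of both libraries were also compared by an exact binomial test, which says nothing of the conditions. It passed an adjusted p-value of 0.05 for 29 of the 32 genes, and for 73.4% of all genes compared. The counting interval lay above 1 for 17 genes and below 1 for 12, and it included 1 for *Abcb9*, *Abca8a* and *Abca6*. By log2 fold change alone, 19 of the 32 genes were above 0, beside 48.7% of all genes compared. At equal library totals 15 of the 32 were above 0, so the split depends on the scaling. The median of all genes compared was then -0.29 and that of the family -0.08. The share of all genes above 0 was not counted at equal totals, so the 15 genes cannot be set beside the 48.7%.

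**Figure D1:**
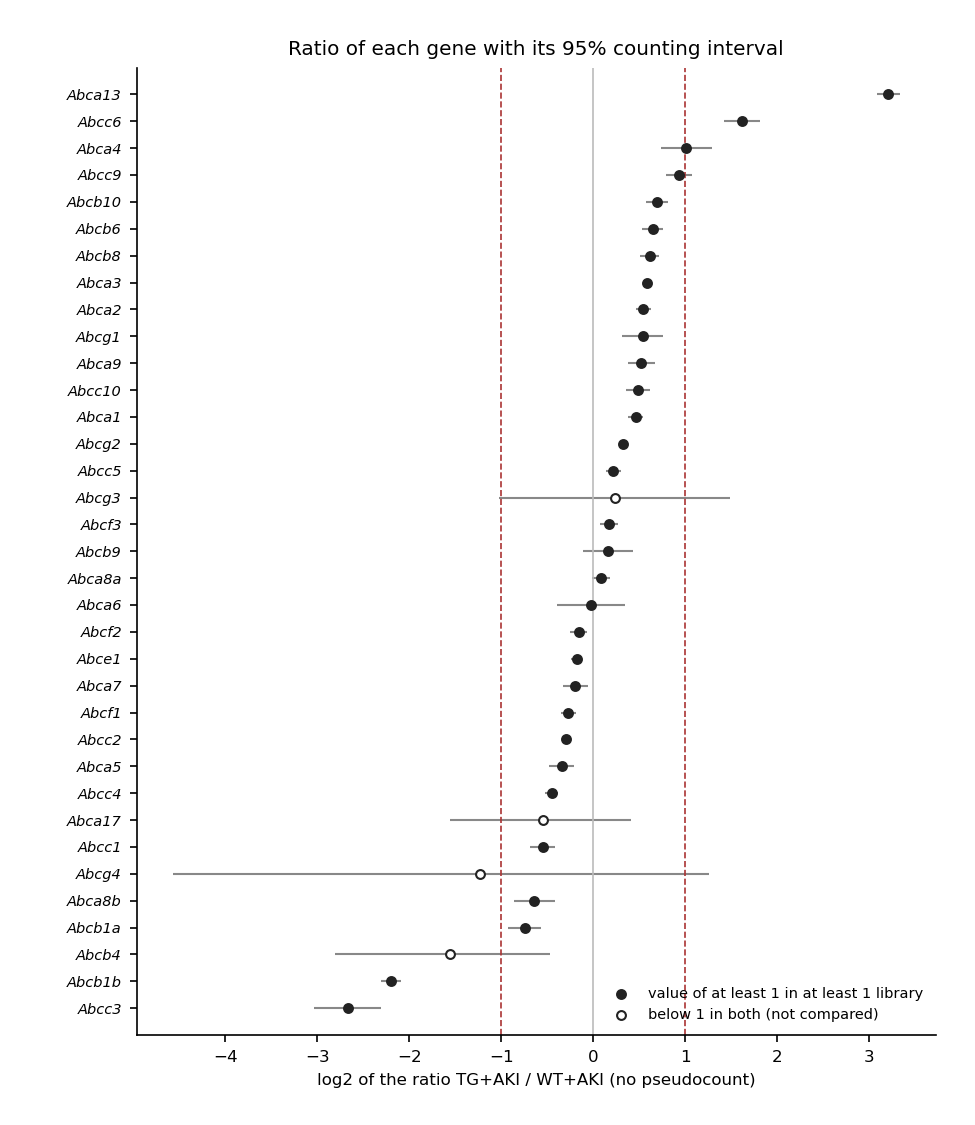
Log2 ratio of the normalized values, TG+AKI over WT+AKI without a pseudocount, for 35 of the ABC genes in order, with bars for the 95% counting interval. Dashed lines mark 2-fold, and open points are the 4 genes below a value of 1 in both libraries. *Abca13* (9.24-fold) and *Abcc6* (3.06-fold) stand at the high end, and *Abcc3* and *Abcb1b* at the low end.

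Closest to the 2-fold limit were *Abca4* and *Abcc9*, both just short of it. *Abca4* had a ratio of 2.01 [1.66 to 2.44] and a log2 fold change of 0.99 on the scale with the pseudocount, so it was not counted. A pseudocount of 0.01 or DESeq2 size factors would count it and give 3 higher genes, beside 7.32% and 7.29% of all genes compared. *Abcc9* followed with a log2 fold change of 0.93. On the low side, *Abcb1a* at -0.74 came next after *Abcb1b* (-2.19). At equal library totals *Abcb1a* was at -1.01, past the limit, which gave 3 lower genes, beside 15.4% of all genes compared.

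The plasma membrane ABCB transporters had the lowest median log2 fold change of the role groups, -1.47 over the 2 genes compared, of which 1 was 2-fold lower. *Abcb1a* and *Abcb1b* encode the mouse P-glycoproteins, which share the drug efflux function that a single gene holds in humans, and *Abcb4* encodes the phosphatidylcholine floppase of bile canaliculi. On GRCm38 they follow each other on the plus strand of chromosome 5, at chr5:8660077-8748575, chr5:8798147-8866315 and chr5:8893717-8959231. *Abcb1b* had a value of 104.6 in WT+AKI (4435 reads) and of 22.8 (755 reads) in TG+AKI. It was therefore 4.59-fold lower in the transgenic kidney [4.25 to 4.96]. *Abcb1a* had a value of 18.7 (792 reads) in WT+AKI against 11.1 (369 reads) in TG+AKI, 1.68-fold lower [1.48 to 1.90]. The quotient of the *Abcb1b* value by the *Abcb1a* value was 5.60 in WT+AKI against 2.05 in TG+AKI. This quotient does not depend on the scaling of the libraries, and it differed 2.74-fold [2.36 to 3.17], so the paralogs were not lower to the same degree. *Abcb4* had 34 reads in WT+AKI against 9 in TG+AKI and was below the limit for a comparison. The 7 injured tubule markers were lower in the same kidney, as given above, and their part in the P-glycoprotein values was not tested.

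How far reads can tell the P-glycoprotein genes apart depends on their sequences. Their coding sequences had 88.1% identical bases over 3819 aligned bases, with a longest identical run of 338. Of the 100-base words in the longest GENCODE M21 transcripts, 8.51% of those of *Abcb1a* and 8.89% of those of *Abcb1b* also occurred in the other gene. By its own bases alone, a read that lies within such a stretch cannot be assigned to either gene. The stretch shown first is shared by both genes and lies in exon 13, at chr5:8702387-8702486 in *Abcb1a* and chr5:8824707-8824806 in *Abcb1b*.
*Abcb1a* and *Abcb1b*, exon 13: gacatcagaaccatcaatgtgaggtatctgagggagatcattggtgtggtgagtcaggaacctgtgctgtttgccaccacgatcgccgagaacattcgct
The stretch shown next, in exon 6, has the median number of differing bases among aligned windows of this length that lie within 1 exon of each gene. It lies at chr5:8685284-8685383 in *Abcb1a* and chr5:8812718-8812817 in *Abcb1b*, and capitals mark the 4 bases that differ.
*Abcb1a*, exon 6: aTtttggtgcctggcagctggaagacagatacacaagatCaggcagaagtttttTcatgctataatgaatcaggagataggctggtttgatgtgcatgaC
*Abcb1b*, exon 6: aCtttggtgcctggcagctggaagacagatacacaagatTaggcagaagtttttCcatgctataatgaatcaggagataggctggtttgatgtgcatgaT
A read over those positions carries bases that tell the genes apart. In addition, 10.1% of the exon bases of *Abcb1a* overlap the gene model *Gm42686* on the opposite strand, and the strand setting of the counting is not given in the sources used here.

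The 250 bases upstream of the RefSeq start of *Abcb1b* were read as a description. The CCAAT box, the GC box GGGCGG and the AP-1 element TGANTCA were searched on both strands. Over 32851 RefSeq promoter windows of this length, 33.9% held CCAAT, 32.7% held GGGCGG and 6.75% held TGANTCA. In *Abcb1b* (GRCm38.p6, plus strand, chr5:8797897-8798146), CCAAT matched 87 bases before the start on the plus strand and 66 bases before it on the minus strand, and GGGCGG matched 48 bases before it. TGANTCA had no match in this window. Capitals mark the CCAAT and GGGCGG matches.
*Abcb1b*, promoter: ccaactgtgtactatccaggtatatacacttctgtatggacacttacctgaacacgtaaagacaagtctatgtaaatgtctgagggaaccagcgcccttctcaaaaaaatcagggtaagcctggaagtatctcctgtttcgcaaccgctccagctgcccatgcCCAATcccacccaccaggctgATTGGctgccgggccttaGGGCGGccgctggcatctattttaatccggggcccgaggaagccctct
The RefSeq start of *Abcb1a* lies far upstream of the GENCODE start used above, so its window is not set beside that of *Abcb1b*, and the bases before the GENCODE start were not searched.

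The multidrug resistance proteins of the ABCC subfamily export glutathione, glucuronide and sulfate conjugates. All 7 were compared, 1 was 2-fold higher, 1 was 2-fold lower, and their median log2 fold change was -0.30. *Abcc3*, whose product exports glucuronides and bile salts through the basolateral membrane, had a value of 13.9 (591 reads) in WT+AKI against 2.20 (73 reads) in TG+AKI. At 6.32-fold lower [4.95 to 8.18], it had the largest difference downward in the family. *Abcc6*, mutated in the calcification disorder pseudoxanthoma elasticum and required for ATP release from cells, had the opposite direction. Its value was 7.24 (307 reads) in WT+AKI against 22.1 (733 reads) in TG+AKI, 3.06-fold higher [2.67 to 3.50]. None of the 100-base words of *Abcc3* (chr11:94343295-94392997, minus strand) or *Abcc6* (chr7:45967555-46030302, minus strand) was shared with another gene. The part of the tubule and macrophage markers in either value was not tested.

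The other members of this subfamily differed less. *Abcc2*, the main apical pump for glucuronide and glutathione conjugates, had 646.6 in WT+AKI against 526.3 in TG+AKI, a ratio of 0.814 [0.799 to 0.830]. *Abcc4*, which exports cyclic nucleotides, urate and prostaglandins, had 102.9 and 75.2, a ratio of 0.731 [0.696 to 0.768]. *Abcc1*, a basolateral exporter of glutathione conjugates and leukotrienes, had 30.9 and 21.1, a ratio of 0.683 [0.622 to 0.749]. All 3 thus lay below 1 while the proximal tubule markers lay above 2, and the part of tubule cells in these values was not tested. *Abcc5*, an exporter of cyclic nucleotides found in many tissues, had 61.1 and 70.9, with a ratio of 1.16 that was below 1 at equal library totals. *Abcc10*, a lipophilic anion pump, had 22.5 and 31.6, a ratio of 1.40 [1.28 to 1.53]. The quotient of *Abcc2* by *Abcc3* was 46.4 in WT+AKI against 238.8 in TG+AKI and differed 5.15-fold [4.03 to 6.66], and that of *Abcc2* by *Abcc4* was 6.28 and 6.99, which differed by 1.11-fold [1.06 to 1.17].

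*Abcc9* encodes the sulfonylurea receptor that regulates ATP-sensitive potassium channels of vascular smooth muscle and pericytes. Its value was 17.2 (730 reads) in WT+AKI against 32.9 (1088 reads) in TG+AKI, a ratio of 1.91 [1.74 to 2.10]. Of the pore subunits with which such receptors assemble, *Kcnj8* had 5.61 and 7.28, a ratio of 1.30 [1.08 to 1.56]. *Kcnj11* had 18 reads in WT+AKI against 47 in TG+AKI, a ratio of 3.34 [1.91 to 6.12]. Among the 7 pericyte and smooth muscle markers, 0 were 2-fold higher and 1 was 2-fold lower, with a summed value of 303 in WT+AKI against 220 in TG+AKI. On the log2 scale, 6 of the 7 markers were below 0 and 1 was above, with a median of -0.44. *Notch3* (ratio 0.383), *Pdgfrb* (0.536), *Des* (0.681) and *Tagln* (0.733) were lower. *Rgs5* (0.977) and *Acta2* (0.986) were close to 1, and *Myh11* (1.27) was higher. The part of these 7 markers in the value of *Abcc9* was not tested.

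**Figure D2:**
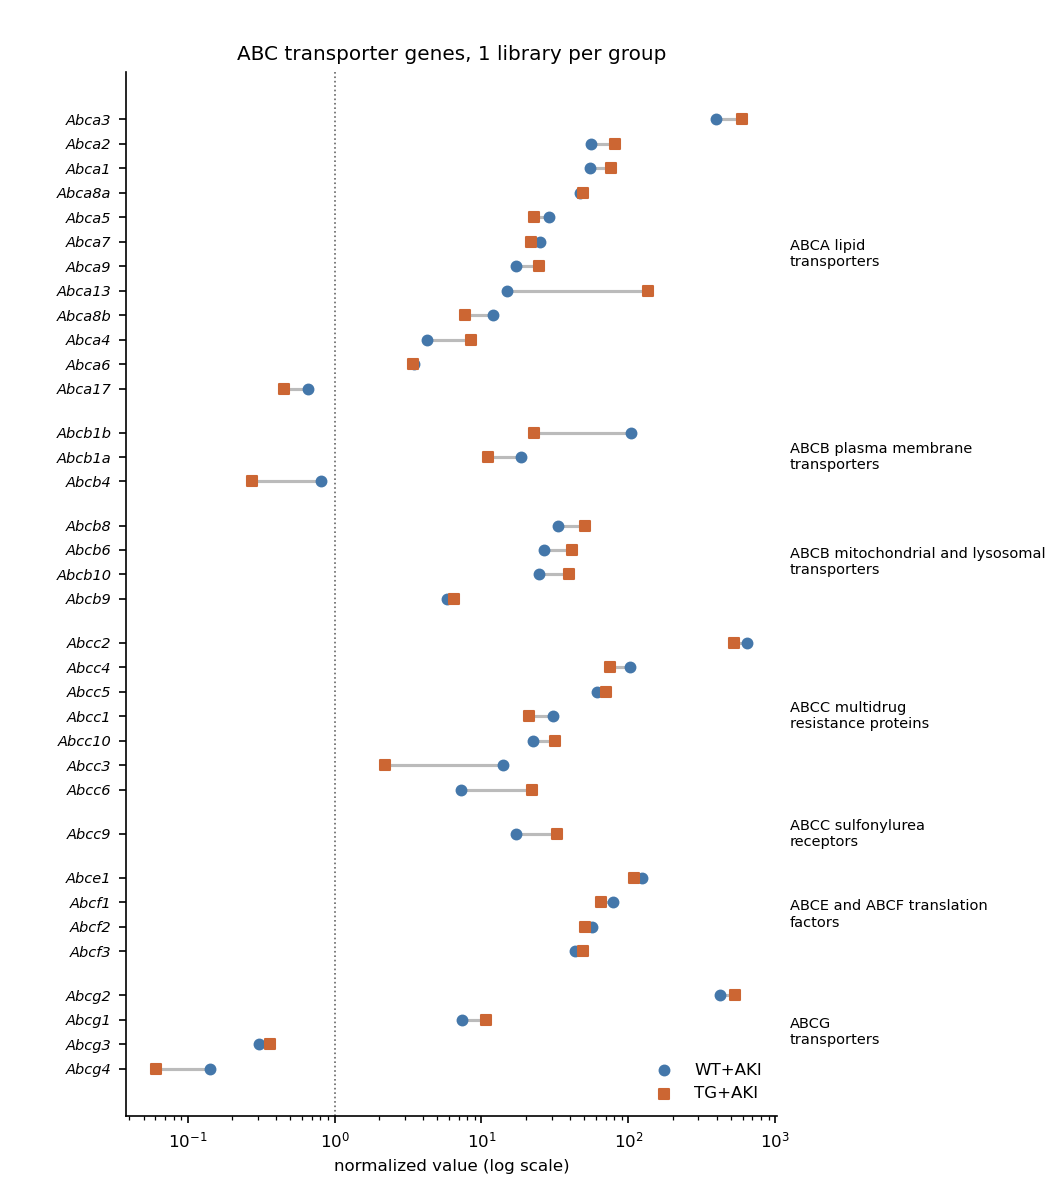
Normalized values of 35 of the ABC genes in the WT+AKI library (circles) and the TG+AKI library (squares) on a log axis, grouped by role, with 1 library per group and no error bars. The dotted line marks the value of 1 needed in at least 1 library for a comparison. The longest connecting lines among the compared genes belong to *Abca13*, *Abcc3* and *Abcb1b*.

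The ABCA subfamily moves lipids. Of its 12 listed members 11 were compared, 1 was 2-fold higher, none was 2-fold lower, and the median log2 fold change was 0.46. *Abca13*, whose substrate is poorly known, had the largest difference of the family. It had a value of 14.8 in WT+AKI (629 reads) and of 137.1 (4539 reads) in TG+AKI, 9.24-fold higher [8.50 to 10.1]. The gene lies at chr11:9191942-9684259 on the plus strand, its longest transcript has 16011 bases, and it shares no 100-base word with another gene. Among all genes compared, 95% had a log2 fold change below 1.21, and that of *Abca13* was 3.20. The proximal tubule markers had a median of 2.10 on the same scale, and their part in the value of *Abca13* was not tested.

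*Abca3*, the phospholipid transporter of lamellar bodies, had 397.6 in WT+AKI against 595.4 in TG+AKI, a ratio of 1.498 [1.47 to 1.53]. For *Abca3*, 10.1% of the 100-base words are shared with *D330041H03Rik*, an overlapping gene on the opposite strand. *Abca4*, the retinoid flippase of photoreceptors, had 4.25 (180 reads) and 8.55 (283 reads). *Abca2*, a lysosomal lipid transporter known from myelinating cells, had 55.8 and 81.4, a ratio of 1.46 [1.38 to 1.54]. *Abca1*, which loads cholesterol onto apolipoprotein A-I, had 55.2 and 76.1, a ratio of 1.38 [1.30 to 1.46]. All 4 had intervals above 1. *Abca7*, a relative of *Abca1* with a role in phagocytosis, had 25.05 and 21.9, a ratio of 0.874 [0.794 to 0.961].

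A cluster on the minus strand of chromosome 11 holds *Abca8b*, *Abca8a*, *Abca9*, *Abca6* and *Abca5*, and these neighbours did not share a direction. *Abca9* had 17.2 in WT+AKI against 24.7 in TG+AKI, a ratio of 1.44 [1.30 to 1.59]. *Abca8a* had 46.7 and 49.5, a ratio of 1.06 [0.993 to 1.13], which turned below 1 at equal totals and at a median ratio of 1. *Abca6* had 3.47 and 3.41, a ratio of 0.984 [0.763 to 1.27]. The other two were lower. *Abca5* had 28.7 and 22.6, a ratio of 0.787 [0.718 to 0.863], and *Abca8b* had 12.0 and 7.70, a ratio of 0.641 [0.550 to 0.747]. *Abca8a* and *Abca8b* share 74.8% of their aligned coding bases and no 100-base word. Their quotient was 3.89 in WT+AKI against 6.43 in TG+AKI and differed 1.65-fold [1.40 to 1.96]. *Abca17*, with 28 and 15 reads, was not compared.

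The ABCB transporters of mitochondria and lysosomes take part in heme and iron-sulfur cluster metabolism and in peptide transport. None of the 5 differed 2-fold, and all 5 had ratios above 1, with a median log2 fold change of 0.61, although *Abcb9* turned below 1 at equal totals. *Abcb10*, an inner mitochondrial membrane transporter needed for heme synthesis, had 24.6 in WT+AKI against 39.7 in TG+AKI, a ratio of 1.62 [1.49 to 1.75]. *Abcb8*, which acts in mitochondrial iron export, had 33.2 and 50.8, a ratio of 1.53 [1.43 to 1.65]. These were smaller differences than those of the proximal tubule markers. *Abcb6*, a porphyrin-linked transporter, had 26.6 and 41.6, a ratio of 1.57 [1.45 to 1.70]. The value of *Abcb6* is uncertain, because 55.2% of its exon bases overlap the gene model *Gm29253* on the same strand. *Abcb9*, the lysosomal peptide transporter, had 5.78 and 6.46, a ratio of 1.12 [0.926 to 1.35]. *Abcb10* has 10.3% of its exon bases under *Gm45890* on the opposite strand.

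Of 18 other genes of heme and iron-sulfur cluster synthesis, 1 was 2-fold higher in TG+AKI and 0 were 2-fold lower, with a median log2 fold change of 0.47. The largest differences were those of *Uros*, uroporphyrinogen III synthase (9.98 in WT+AKI against 23.7 in TG+AKI), *Nfs1*, the cysteine desulfurase of cluster assembly (75.6 and 142.1), and *Cpox*, coproporphyrinogen oxidase (70.3 and 129.8). Their ratios were 2.38, 1.88 and 1.85.

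The ABCG subfamily had 4 listed members, of which 2 were compared and none differed 2-fold. *Abcg2*, the brush border pump for urate and sulfate conjugates, had a value of 423.3 in WT+AKI (17945 reads) and of 531.0 (17585 reads) in TG+AKI. The ratio was 1.25 [1.23 to 1.28]. *Abcg1*, which passes cholesterol to high-density lipoprotein, had 7.38 and 10.7, a ratio of 1.45 [1.24 to 1.70]. *Abcg3*, with 13 and 12 reads, and *Abcg4*, with 6 and 2 reads, were too low to compare. *Abcg2* and *Abcc2*, both brush border pumps, stood on opposite sides of 1, and the quotient of *Abcg2* by *Abcc2* was 0.655 in WT+AKI against 1.01 in TG+AKI, a 1.54-fold difference [1.498 to 1.59].

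*Abca1* and *Abcg1* are induced by the oxysterol receptor LXR. Of 12 other genes compared, the LXR targets and the LXR genes *Nr1h2* and *Nr1h3* themselves, 2 were 2-fold higher and 0 were 2-fold lower, and their median log2 fold change was 0.35. The 10 targets without the LXR genes had a median of 0.37 and a range from -0.29 to 1.67. Of these 10, 8 were above 0, 2 were below 0, and 8 did not differ 2-fold. The part of LXR in the values of *Abca1* and *Abcg1* was not tested. The targets with the largest differences were *Smpdl3a*, a phosphodiesterase (186.2 in WT+AKI against 593.9 in TG+AKI), *Lpl*, lipoprotein lipase (146.9 and 448.4), and *Scd1*, stearoyl-CoA desaturase (146.4 and 257.2). Macrophages also express *Abca1* and *Abcg1*. Their markers were lower in TG+AKI for 7 of 9 genes, as given above, whereas *Abca1* and *Abcg1* were higher, and the part of these cells in either value was not tested.

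The ABCE and ABCF proteins act in translation, and none of the 4 differed 2-fold. Their median log2 fold change was -0.17. *Abce1*, which splits ribosomes into subunits after termination, had 124.0 in WT+AKI against 109.5 in TG+AKI, a ratio of 0.883 [0.846 to 0.922]. *Abcf1*, a partner of the initiation factor eIF2, had 79.2 and 65.6, a ratio of 0.829 [0.785 to 0.875]. *Abcf2* had 56.3 and 50.5, a ratio of 0.897 [0.842 to 0.955]. These 3 were lower by less than a factor of 1.21. *Abcf3* had 43.5 and 49.0, a ratio of 1.13 that was below 1 at equal totals. Of 7 other genes of translation initiation, termination and ribosome rescue, 0 differed 2-fold and the median log2 fold change was 0.02. *Eif2s1*, the eIF2 alpha subunit, had a ratio of 0.659, *Etf1*, the termination factor, 0.735, and *Ltn1*, the ubiquitin ligase of stalled ribosomes, 1.17.

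Levels between genes were compared per kilobase of the longest annotated transcript. In WT+AKI the order began with *Abcc2* (80.6 per kb [79.6 to 81.5]), *Abcg2* (74.0 [73.0 to 75.1]), *Abca3* (61.4 [60.5 to 62.3]) and *Abce1* (32.7 [31.8 to 33.6]), where brackets hold exact Poisson intervals of the level. These 4 did not overlap each other and held 54.9% of the summed level per kb of the family. *Abcf1* (25.04) and *Abcb1b* (24.3) followed and overlapped. In TG+AKI the order began with *Abcg2* (92.9 [91.5 to 94.3]) and *Abca3* (91.9 [90.7 to 93.2]), whose intervals overlapped. *Abcc2* (65.6 [64.6 to 66.6]) and *Abce1* (28.9 [28.0 to 29.8]) came next, and the first 4 held 57.2%.

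The same 3 genes led in both kidneys, and the order below them changed most for the 4 genes past 2-fold. *Abcb1b* went from rank 6 (24.3 per kb) in WT+AKI to rank 19 (5.29 per kb) in TG+AKI. *Abca13* went from rank 30 (0.927 per kb) to rank 16 (8.56 per kb), and *Abcc3* from rank 23 (2.79 per kb) to rank 32 (0.440 per kb). *Abcc6* went from rank 28 (1.46 per kb) to rank 20 (4.45 per kb). Of 35 neighbouring pairs in the order, 16 had overlapping intervals in WT+AKI against 20 in TG+AKI. With the coding length in place of the transcript length, *Abcg2*, *Abcc2* and *Abca3* still led in both libraries, but *Abcg2* then stood before *Abcc2* in WT+AKI too, so the first rank there depends on the length used.

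**Figure D3:**
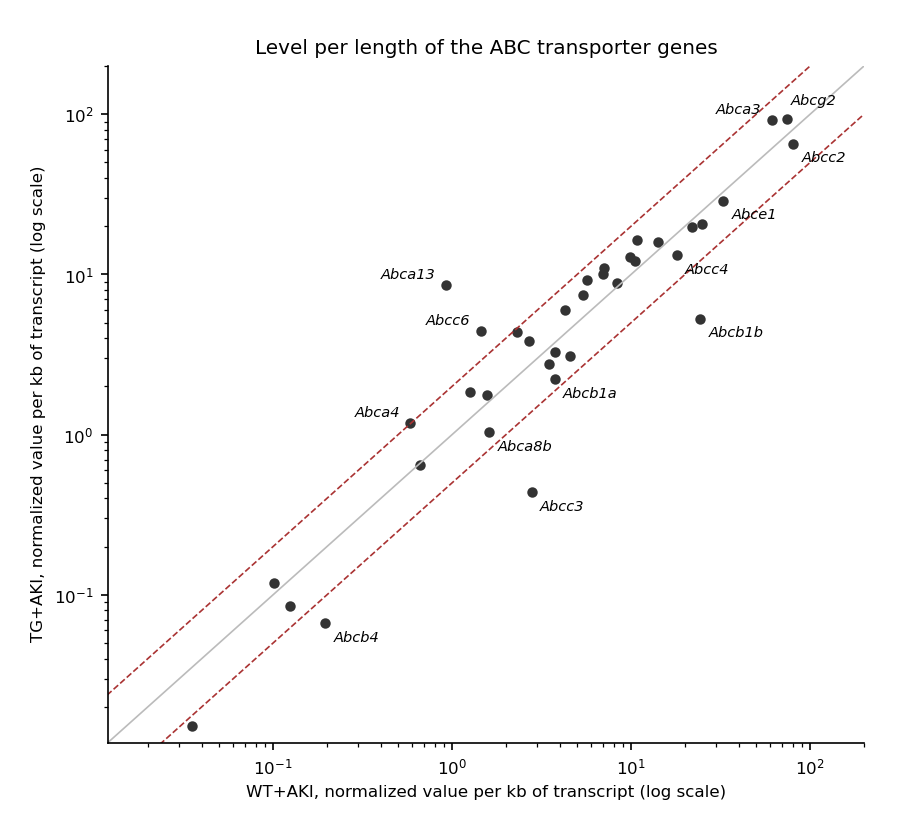
Normalized value per kilobase of the longest transcript in WT+AKI (horizontal) and TG+AKI (vertical), both on log axes, for the 36 ABC genes. The grey line marks equal levels and the dashed lines 2-fold. *Abcg2*, *Abca3* and *Abcc2* lie at the top right, and *Abca13* lies far above the line and *Abcb1b* and *Abcc3* far below it.

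Other organic ion carriers of the tubule, which take substrates into the cell or exchange them at the brush border beside the ABC pumps, were mostly higher in the transgenic kidney. Of 13 such carriers, 9 were at least 2-fold higher and 0 lower, with a median log2 fold change of 1.20. The list holds 3 apical exporters, *Slc47a1*, *Slc17a1* and *Slc17a3*, and of the 10 carriers without them 7 were 2-fold higher, with a median of 1.58. The largest differences were those of *Slco1a1*, an organic anion carrier (23.4 in WT+AKI against 221.9 in TG+AKI, 9.50-fold), *Slc22a8*, the organic anion transporter 3 (69.6 and 528.5, 7.59-fold), and *Slco1a6* (46.4 and 220.3, 4.75-fold). Of the 5 apical pump genes *Abcc2*, *Abcc4*, *Abcg2*, *Abcb1a* and *Abcb1b*, 1 was above 1, *Abcg2* at 1.25-fold, and 1 was 2-fold lower, *Abcb1b*. The difference between these carriers and the ABC pumps was not tested, since there is 1 library per group.

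NRF2, a transcription factor of the oxidative stress response, can induce several of the multidrug resistance genes. Of the 7 ABCC multidrug resistance genes, 4 had a log2 fold change below 0 and 3 above 0. Past 2-fold were 1 lower gene, *Abcc3*, and 1 higher gene, *Abcc6*. The part of NRF2 in the values of these genes was not tested. Of 11 other genes, 10 NRF2 targets and the NRF2 gene *Nfe2l2*, 8 were at least 2-fold lower in TG+AKI and 0 higher, with a median log2 fold change of -1.15. Without *Nfe2l2* these were 7 of 10, with a median of -1.28. Of the 11 genes, 10 had a log2 fold change below 0 and 1 had one above 0. The largest differences were those of *Slc7a11*, the cystine carrier (172 reads in WT+AKI against 6 in TG+AKI, 22.4-fold lower [10.1 to 61.9]), *Srxn1*, sulfiredoxin (409.2 and 77.5, 5.28-fold lower), and *Hmox1*, heme oxygenase (169.7 and 43.3, 3.92-fold lower). Of 5 receptors for xenobiotics and bile acids that were compared, 0 differed 2-fold. Among them, *Ahr* had 13.1 and 6.58, *Nr1i2*, the pregnane X receptor, 11.9 and 6.95, and *Rxra*, the shared partner of several nuclear receptors, 104.3 and 154.3.

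Among 6 ABC proteins outside the rule that were compared, 2 were at least 2-fold lower and 0 higher. *Tap1*, a subunit of the peptide transporter for antigen presentation, had 29.8 in WT+AKI against 6.16 in TG+AKI, 4.84-fold lower [4.17 to 5.64]. Its partner *Tap2* had 28.8 and 15.2, 1.89-fold lower [1.71 to 2.11]. *Cftr*, the chloride channel built on an ABC fold, had 20.3 and 7.97, 2.55-fold lower [2.22 to 2.94].

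**Figure D4:**
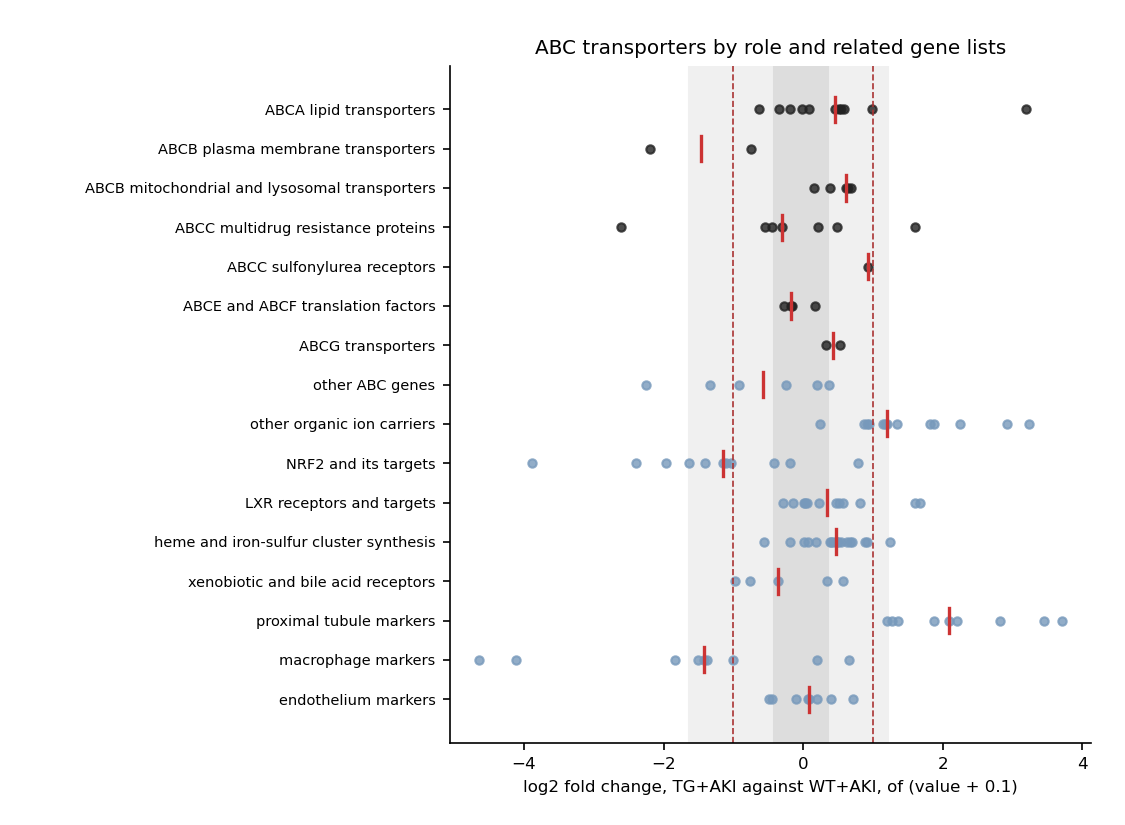
Log2 fold change, TG+AKI against WT+AKI, of each gene compared, by role of the ABC genes (black) and for related gene lists (blue). Red ticks are medians, dashed lines mark 2-fold, and the grey bands span 25% to 75% (dark) and 5% to 95% (light) of all 14997 genes compared. The medians of the ABC roles lie between -1.47 and 0.93, whereas all 9 proximal tubule markers lie above 1 and the other organic ion carriers have a median of 1.20.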

How the data were processed

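Whole-kidney RNA was profiled in 2 libraries (TruSeq Stranded mRNA). According to the study's methods and the submitters' processing notes, reads were aligned with STAR 2.7.3a (mm10), counted with HTSeq and normalized with DESeq2. The tools named in the sample records also include edgeR. The strand setting of the counting is not given in the sources used here. The authors deposited 1 normalized signal value per gene and library. All deposited values (100%) were whole multiples of the smallest value of their column (tolerance 0.01), so whole reads were recovered. The scaling matched edgeR TMM factors (1.10 and 0.909) rather than DESeq2 size factors (1.14 and 0.879).

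Genes that reached a value of 1 in either library were compared as log2(value + 0.1), and differences of 2-fold or more were counted. Ratios carry 95% Clopper-Pearson intervals. The exact binomial test was two-sided, with Benjamini-Hochberg adjustment over all 14997 genes, and compares libraries only. Transcript and coding lengths, coordinates and shared 100-base words came from GENCODE M21 (GRCm38), in which all 36 genes were found, and promoter windows from RefSeq (GRCm38.p6). The coding length was taken from the annotated coding sequence in place of the protein. Members are named, and 1 is not reported here by itself but stays in the counts and medians. Of each other list, the 3 largest absolute log2 fold changes may be named. The members and lists were chosen with earlier results of these data known, and the gene pairs for quotients, the sequence windows, the motifs, the named pericyte, exporter and receptor genes and the lists without them after their values were seen. Calculations used Python 3.11.15 (numpy 2.4.6, scipy 1.17.1, pandas 2.3.3), R 4.3.3, edgeR 4.0.16 and DESeq2 1.42.0, and were tested on simulated data. Alternatives covered the pseudocount, the filter, the scaling, the call rule, shared sequence and the length.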

Additional observations from a re-analysis of the deposited data

How the results depend on the processing

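The counts of 2 higher and 2 lower genes rest on *Abca13*, *Abcc6*, *Abcc3* and *Abcb1b*. They were 2 and 2 with a pseudocount of 1, a filter of 10, a median ratio of 1 over well-expressed genes, edgeR TMM factors, the added binomial test, and without the 2 members that share over 10% of their 100-base words. There were 3 higher genes with a pseudocount of 0.01 (beside 7.32% of all genes compared) or DESeq2 size factors (7.29%), where *Abca4* was added. There were 3 lower genes at equal library totals (beside 15.4%), where *Abcb1a* was added (-1.01), or with no filter (9.84%), where *Abcb4* was added. The 1.5-fold rule gave 7 higher and 4 lower genes, beside 2306 (15.4%) and 2872 (19.2%) of all genes compared. The median log2 fold change of the family was -0.081 at equal library totals, a scaling that moved the median of all genes by -0.27, and 0.049 at a median ratio of 1, which moved it by -0.14. The distance between both medians was 0.18 to 0.21 in all settings. Over all genes, equal totals gave 695 higher and 2304 lower genes in place of 1053 and 1578, so that the share of higher genes among those past 2-fold was 23.2% in place of 40.02%. Of the 32 members, 28 kept their direction under every scaling and pseudocount tried. The exceptions at equal totals were *Abcf3* (-0.10), *Abcc5* (-0.06), *Abcb9* (-0.11) and *Abca8a* (-0.19), and *Abca8a* was also at -0.06 at a median ratio of 1. Sizes were less stable than directions. At equal totals, 28 of the 32 log2 fold changes moved by more than the distance from the middle of their counting interval to its end. At a median ratio of 1, 23 did, and with a pseudocount of 1 only 1 did. *Abcg2*, for example, went from 0.33 to 0.05 at equal totals. The intervals of the ratios thus hold for the scaling of the deposited values only. No paired analysis was possible because each group has 1 library, and no library could be left out for the same reason. Depth limited *Abcb4*, *Abca17*, *Abcg3* and *Abcg4*, which had at most 34 reads in either library.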
